A study of Mus musculus with 8 samples.

Results

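SB202190, an inhibitor of the p38 kinases, was added to fibroblast growth factor 2 (FGF2), a mitogen of astrocytes, and compared with FGF2 alone. The comparison used 4 of the series' 8 Affymetrix arrays, the 2 whose labels name FGF2 with SB202190 and the 2 that name FGF2 alone. The other arrays were 2 of vehicle and 2 of FGF2 with U0126, an inhibitor of the MEK kinases upstream of ERK. All held total RNA of mouse cerebral cortex, 1 array per sample, and the series' title names an astroglial program. The sources used here did not give dose, time, strain, age, whether cells were cultured, or whether the 2 samples of a group came from separate animals or cultures, so each p-value rests on a sample-to-sample spread that may be technical alone. No group held SB202190 without FGF2. Both arrays of FGF2 with SB202190 carry the same treatment in their labels, except that the treatment type of replicate 2 reads acclimatization where the others read wait.

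The p38 kinases are activated by stress, cytokines and growth factors through the kinases Map2k3 and Map2k6. They phosphorylate the kinases Mapkapk2 and Mapkapk3, which prolong the life of messengers that carry AU-rich elements, among them those of inflammatory and early response genes. SB202190 binds the ATP pocket of the alpha and beta forms of p38, encoded by Mapk14 and Mapk11. In astrocytes p38 is known for its part in cytokine production and in reactive states.

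Of 45101 probe sets, 34958 carried 1 gene symbol, and these stood for 18194 genes, of which 13174 were bright enough to test. Median signal per array lay between 22.3 and 27.8. In the added control transcripts FGF2 replicate 2 stood above the others, at 387 for bioB and 10270 for cre, against 241 to 300.4 and 7578 to 8276. The ratio of 3' to 5' signal for Actb, a sign of RNA quality, was 1.41 and 1.4 with SB202190 and 1.35 and 1.38 with FGF2 alone. Replicates correlated over genes at r = 0.984 with SB202190 and 0.983 with FGF2 alone, and arrays of the 2 groups at 0.978 to 0.981. The median absolute log2 difference between an array with SB202190 and an array without it was 0.164 to 0.190, against 0.126 and 0.135 between replicates, so for the median gene the step added by the inhibitor was small beside the replicate spread.

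Astrocyte genes were high on these arrays, as with Aqp4, the water channel of astrocyte endfeet, and Gfap, their intermediate filament. Markers of other cell types differed in brightness. Of the fibroblast and pericyte markers 11 of 13 passed the filter, and of the ependymal markers 10 of 11. Of the oligodendrocyte precursor markers 7 of 8 passed, and of the oligodendrocyte markers 3 of 8. Several defining markers of microglia, endothelial cells and neurons were dim. The microglial gene Aif1 stayed at or under 15.4 on all 8 arrays, the endothelial gene Pecam1 at or under 1.56 and the neuronal gene Snap25 at or under 14.2, and 6 of 14 microglial, 5 of 10 endothelial and 7 of 13 neuronal markers passed the filter. The summed signal of the 11 astrocyte markers was 13472.5 and 13612 with SB202190 and 13732 and 13862 with FGF2 alone. That of the oligodendrocyte precursor markers was 3799 and 3904 against 4327 and 4475. Olig1, the brightest of the 7 tested, carried that difference, while 4 of the 7 had changes above 0 and the median was 0.04. The fibroblast and pericyte markers summed to 12154 and 13519 against 13997 and 15469, the neuronal markers to 2685 and 2740 against 2472 and 2547, and the dim endothelial markers to 205 and 212 against 254 and 269, with 0 fibroblast and pericyte, neuronal or endothelial markers called. In bulk RNA, fewer cells of a type and less RNA per cell cannot be told apart.

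SB202190 changed 398 of the 13174 genes (3.02%) at an adjusted p under 0.05 in limma, a linear model with pooled variance. Of these 174 were higher (1.32%) and 224 lower (1.7%). Changes are given as log2 change ± SE of FGF2 with SB202190 against FGF2 alone, n = 2 arrays a side, on quantile-normalized values, and signals as deposited. They were modest: the median absolute change of the called genes was 0.46, and 14 passed 2-fold, 5 higher and 9 lower. The median change over all genes was -0.0048. The 2 groups of arrays did not overlap for 6442 genes (48.9%). Calls rose with brightness, from 5 of the 3294 genes at the lowest signals (0.152%) to 234 of the 3294 at the highest (7.1%). The shares of 1.32% higher and 1.7% lower are the background for the gene lists below, and a list of bright genes would have a higher one.

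**Figure D1:**
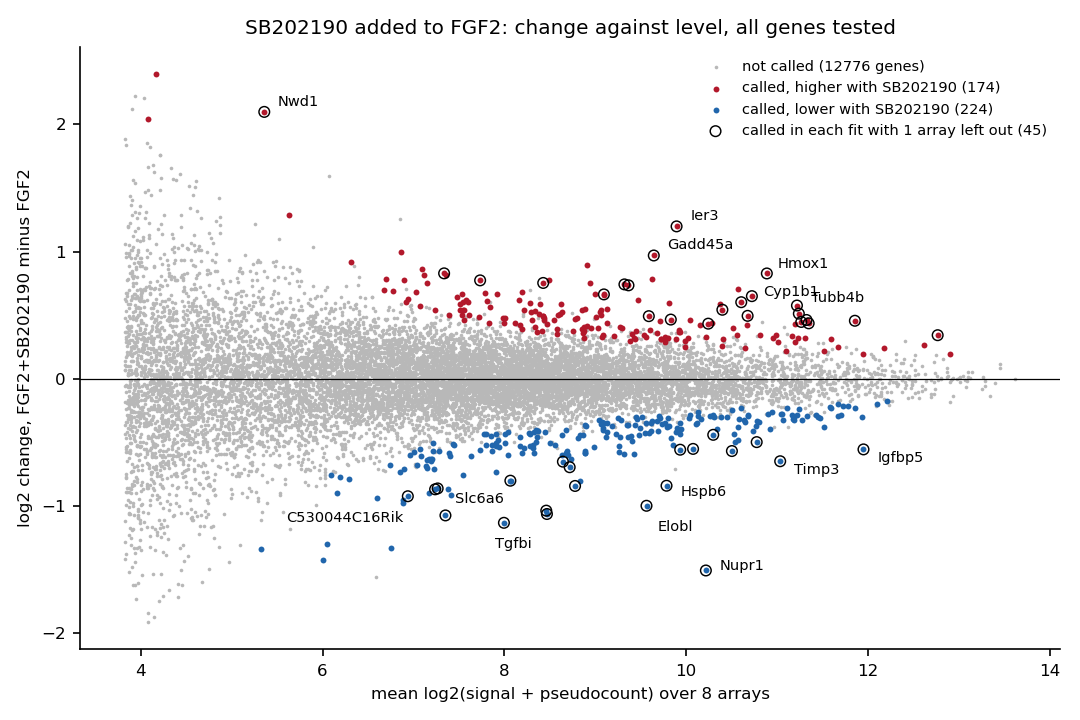
Log2 change of FGF2 with SB202190 against FGF2 alone (vertical axis) against the mean log2 signal over 8 arrays (horizontal axis), 1 point per gene tested, with 174 genes called higher in red and 224 called lower in blue. Circles mark the 45 genes called in each fit with 1 array left out, which lie mostly at high signal and range from Nupr1 at -1.51 to Nwd1 at 2.10.

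Many of these calls were lost when 1 array was left out. Such a fit keeps only 1 array in 1 group, so its precision is lower. The count given for a single fit takes in all genes called there, also genes outside the 398, so fewer of the 398 remained. Whether lower precision or a single array made the losses was not tested. Leaving out either array of FGF2 alone left 83 and 82 calls, leaving out replicate 2 of FGF2 with SB202190 left 97 and replicate 1 left 299, and 45 genes (0.342%) were called in all 8 fits with 1 array left out, 24 of them higher and 21 lower. These 45 are called stable below, and any other gene's call was missing from at least 1 of these fits. With all probe sets of a gene averaged limma called 170 genes, 139 of them among the 398, so most of the 398 were not called there. Stable genes that were not among the 170 included Cox15, Cyp1b1, Trp53inp1, Plat, Tubb4b, Tuba4a and Slc6a6. This loss is given below for some genes only. Without an intensity trend in the variance prior limma called 0 genes, with 1819 at an unadjusted p under 0.05, all 398 among them, and that setting ends every call against FGF2 alone given here.

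**Figure D2:**
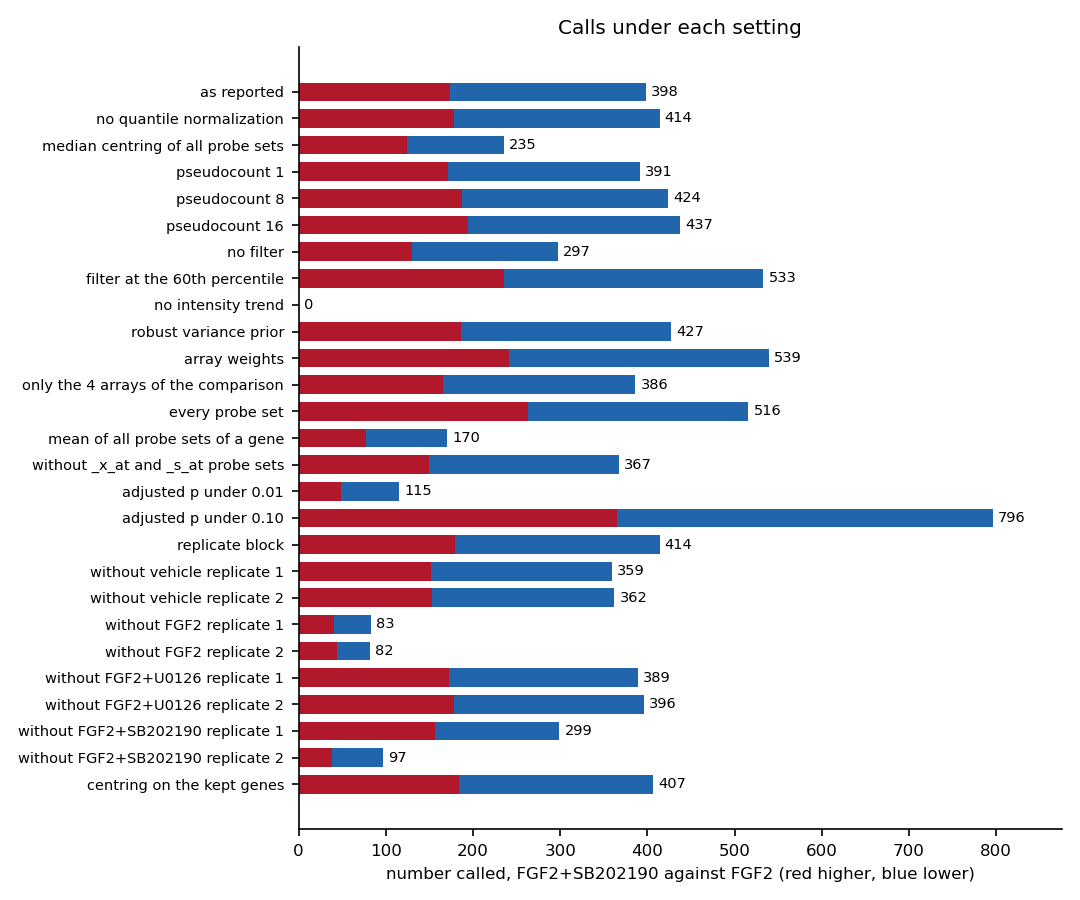
Number of genes called in FGF2 with SB202190 against FGF2 alone (horizontal axis, from 0) under each of 27 settings (vertical axis), with genes higher in red and lower in blue. As reported it is 398, without an intensity trend 0, and with 1 array of the comparison left out 82 to 299.

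At the RNA level the genes of the p38 pathway itself were called about as often as all genes. Of 31 tested members 1 rose and 0 fell (background 1.32% and 1.7%). The median change was -0.005, with all genes at -0.0048 and the list's median between -0.04 and 0.01 over all settings. The inhibitor's targets were not called. Mapk14, the p38 alpha kinase, had signals of 346 and 324 with SB202190 and 252 and 304 with FGF2 alone, a change of 0.27 ± 0.11 (adjusted p = 0.202). Both arrays with SB202190 lay above both without it, by less than the test requires. Mapk11, the beta form, was dim at 38.4 and 30.2 against 29.6 and 32.1, and its interval of -0.58 to 0.84 (95%) leaves a wide range of changes possible. The kinase Mapkapk2 stood at 0.33 ± 0.14 (adjusted p = 0.239) and Mapkapk3, which FGF2 had raised by 1.04 ± 0.11, at -0.39 ± 0.11 (adjusted p = 0.0739). Upstream, Map2k3 stood at 0.07 ± 0.11 and Map2k6 at -0.16 ± 0.18, and downstream the transcription factor Mef2c, a substrate of p38, at -0.86 ± 0.28 (adjusted p = 0.126) and Hspb1, a small heat shock protein phosphorylated by Mapkapk2, at -0.07 ± 0.07. The member that rose was Dusp1, a phosphatase that dephosphorylates p38. Its signals were 768 and 822 with SB202190, 654 and 615 with FGF2 alone and 839 and 865 with U0126, a change of 0.32 ± 0.07 (adjusted p = 0.0325) that was lost without FGF2 replicate 1, FGF2 replicate 2 or FGF2+SB202190 replicate 2.

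Messengers known to be stabilised through p38 and Mapkapk2 did not move one way. Of 20 tested, 3 rose (Ier3, Dusp1 and Mmp3), 1 fell (Fos), and the median was -0.02. The cytokine messengers tested were uncalled, as was Ptgs2. Ptgs2, the inducible cyclooxygenase, stood at 69.1 and 73.4 with SB202190 and 88.1 and 82.3 with FGF2 alone, and the chemokine Ccl2 at 145 and 181 against 178 and 193, ranges that overlap for Ccl2. Their changes were -0.25 ± 0.19 and -0.19 ± 0.27. Zfp36, the decay factor that Mapkapk2 inactivates, stood at -0.04 ± 0.15. Among NF-kB targets 1 of 17 was called, Vcam1, an adhesion molecule, which fell from 2181 and 2381 to 1617 and 1564, a stable change of -0.50 ± 0.06 (adjusted p = 0.00178) that left it near the vehicle arrays, at 1664 and 1517.

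Ier3 and Gadd45a were among the stable genes with the highest changes. Ier3, an early gene that modulates ERK signalling and survival, had signals of 443 and 506 with vehicle, 735 and 791 with FGF2, 1275 and 1335 with U0126, and 1668 and 1857 with SB202190. The last were the highest of the 8 arrays, a 2.29-fold level against FGF2 alone (log2 1.20 ± 0.08, adjusted p = 8.21e-06). Gadd45a, a stress protein that acts in DNA repair and upstream of p38, had 513 and 524, 713 and 679, 874 and 781, and 1334 and 1387 in the same order. Here too both arrays with SB202190 stood above the 6 others, at 0.97 ± 0.07 (adjusted p = 2.36e-05), and also against U0126 at 0.72 ± 0.07 (adjusted p = 1.92e-05). Trp53inp1, a p53 target that acts in autophagy and cell death, rose by 0.49 ± 0.07, or 0.28 (adjusted p = 0.154) with its probe sets averaged. Gadd45a and Trp53inp1 were the 2 genes called of 24 in the list of p53 and DNA damage stress, whose median was 0.06, while Cdkn1a, the p21 inhibitor of cyclin-dependent kinases, stood at -0.11 ± 0.06 and Mdm2, the p53 ligase, at -0.06 ± 0.08.

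**Figure D3:**
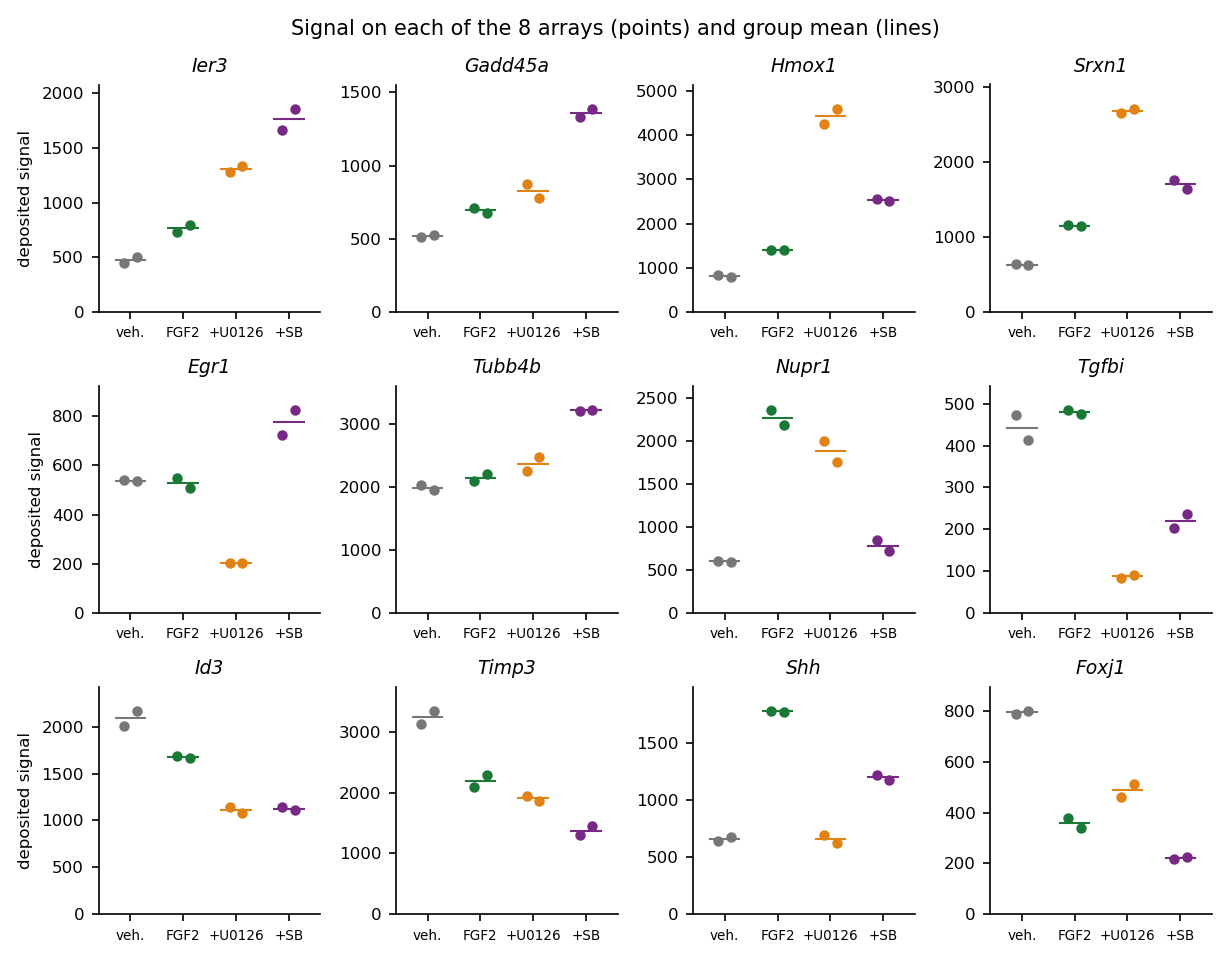
Deposited signal (vertical axis, linear, from 0) of 12 genes on each of the 8 arrays, in the groups vehicle, FGF2, FGF2 with U0126 (+U0126) and FGF2 with SB202190 (+SB), with lines at the group means. Ier3, Gadd45a, Egr1 and Tubb4b are highest with SB202190, Timp3 and Foxj1 lowest, and Hmox1 and Srxn1 lie between FGF2 alone and U0126.

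Egr1 and Egr3, early transcription factors, were higher with SB202190 than with FGF2 alone and lower with U0126. Egr1, a zinc finger factor induced through ERK, had 725 and 826 with SB202190, 549 and 509.9 with FGF2 alone, and 201 and 205 with U0126. It was higher than FGF2 alone by 0.54 ± 0.09 (adjusted p = 0.00583) and than U0126 by 1.91 ± 0.09 (adjusted p = 2.28e-08), so the 2 inhibitors lay on opposite sides of FGF2. Its relative Egr3 was dimmer and moved the same way, from 63.8 and 47.6 to 121 and 159.6 with SB202190 and to 21.3 and 17.1 with U0126. That is 1.29 ± 0.25 against FGF2 alone (adjusted p = 0.0143) and 2.70 ± 0.25 against U0126. Jun, the AP-1 subunit, rose by 0.40 ± 0.09, and its partner Fos fell by 0.58 ± 0.11 (adjusted p = 0.015), from 627 on each array to 371 and 471. With all probe sets of a gene averaged, Egr3 and Fos were not called against FGF2 alone. Dusp6, the ERK phosphatase that FGF2 had raised by 2.24 ± 0.07, rose further by 0.36 ± 0.07 with SB202190 and stood 0.79 ± 0.07 above its level with U0126. Among ERK feedback genes and targets 5 of 26 rose (background 1.32%), 1 fell (background 1.7%) and the median was 0.09. A list of 24 early response genes, added after values had been seen and so given as a description, held 7 that rose and 1 that fell. Egr1 lost its call without FGF2 replicate 2 or FGF2+SB202190 replicate 2, and Egr3 and Dusp6 without either FGF2 array or FGF2+SB202190 replicate 2. Jun lost it with any of the 4 arrays of the comparison left out, and Fos without either FGF2 array or FGF2+SB202190 replicate 1.

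Targets of NRF2, the transcription factor of the oxidative stress response, formed the list with the most genes called higher. Of 21 tested 10 rose and 0 fell (background 1.32% higher), with a median of 0.22, and with 1 array left out 5 to 8 were called. The stable members were Hmox1, Srxn1, Txnrd1, Gsta4 and Taldo1. Hmox1, the heme oxygenase, had 832 and 799 with vehicle, 1409.7 and 1396 with FGF2, 2547 and 2516 with SB202190 and 4264 and 4598 with U0126. The 4 groups did not overlap, and SB202190 lay 0.83 ± 0.06 above FGF2 alone (adjusted p = 8.21e-06) and differed from U0126 by -0.83 ± 0.06 (adjusted p = 5.45e-07). Srxn1, the sulfiredoxin that restores oxidised peroxiredoxins, followed the same order with 1157 and 1137 with FGF2, 1751 and 1642 with SB202190 and 2646 and 2703 with U0126. It rose by 0.54 ± 0.06, and Txnrd1, the cytosolic thioredoxin reductase, by 0.45 ± 0.05. Gsta4, a glutathione transferase, rose by 0.51 ± 0.05 from a level that FGF2 had changed by -0.38 ± 0.05 against vehicle, and Taldo1, of the pentose phosphate pathway, by 0.44 ± 0.06. Nqo1, a quinone reductase, rose by 0.54 ± 0.10 with SB202190 and differed from U0126 by -1.23 ± 0.10, and it lost its call without either FGF2 array or FGF2+SB202190 replicate 1. The comparison of U0126 with FGF2 shares the FGF2 arrays. There 18 of the 21 genes rose and 0 fell, beside 11.6% and 10.5% of all genes.

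Promoters of some called genes in these stress and lipid lists were read from RefSeq (GRCm38.p6), to show where known motifs lie. The pairs of gene and motif were picked by hand, and a start was used only where its 150 bases hold the motif. A match in each was thus fixed in advance, and other list members, such as Hmox1, are not shown. Each line gives the 150 bases before a transcription start, 5' to 3' on the gene's strand, with the motif in capitals. Srxn1 (chr2:152105374-152105523, plus strand) holds TGANTCA, the AP-1 letters, on 2 occasions, and Txnrd1 (chr10:82859056-82859205, plus strand, 1 of 3 starts listed) the antioxidant response core TGACNNNGC on the reverse strand. Nupr1 (chr7:126625471-126625620, minus strand) and Slc7a11 (chr3:50443614-50443763, minus strand) hold TGATGNAA, the composite letters of C/EBP and ATF factors, and Hmgcs1 (chr13:119690201-119690350, plus strand) TCACNCCAC, a sterol regulatory element.
Srxn1: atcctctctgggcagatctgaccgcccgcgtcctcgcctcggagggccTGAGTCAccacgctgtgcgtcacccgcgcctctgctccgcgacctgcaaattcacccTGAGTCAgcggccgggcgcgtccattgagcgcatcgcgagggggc
Txnrd1: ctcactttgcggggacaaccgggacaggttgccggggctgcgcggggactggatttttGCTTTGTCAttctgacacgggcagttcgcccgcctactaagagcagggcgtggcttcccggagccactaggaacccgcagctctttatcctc
Nupr1: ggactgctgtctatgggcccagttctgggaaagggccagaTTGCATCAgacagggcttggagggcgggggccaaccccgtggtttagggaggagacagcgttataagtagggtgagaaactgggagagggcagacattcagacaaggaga
Slc7a11: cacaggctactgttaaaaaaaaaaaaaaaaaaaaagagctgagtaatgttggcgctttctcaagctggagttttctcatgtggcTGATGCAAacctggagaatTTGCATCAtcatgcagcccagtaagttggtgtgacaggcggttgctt
Hmgcs1: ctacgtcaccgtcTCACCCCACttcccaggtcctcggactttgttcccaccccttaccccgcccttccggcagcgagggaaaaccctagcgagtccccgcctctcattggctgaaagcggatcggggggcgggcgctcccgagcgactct
Searched on both strands in the 250 bases before the start, TGACNNNGC lay in 13.8% of the 10616 tested genes with a promoter, in 13.5% of the genes called higher and in 9.88% of those called lower. TGANTCA, which can overlap it, lay in 5.71%, 9.52% and 4.65%. TGATGNAA lay in 2.38%, 2.38% and 3.49%, and TCACNCCAC in 1.31%, 2.38% and 1.74%. A match describes these letters and is no evidence of binding.

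The aryl hydrocarbon receptor is a ligand-activated factor that induces detoxifying enzymes. Of 6 tested genes listed for it, 3 rose (background 1.32% higher), 0 were called lower, and the median was 0.32. The 6 are not all targets, as they include the receptor itself, Ahr, at -0.165 and its partner Arnt at -0.21, both uncalled. Cyp1b1, a cytochrome P450, had 996 and 1042 with FGF2, 1706 and 1524 with SB202190 and 2733 and 2653 with U0126. Both inhibitors stood above FGF2 alone, SB202190 by 0.65 ± 0.06 (adjusted p = 0.0002), and its level with vehicle was 1815 and 1763. Tiparp, a polymerase that represses the receptor, rose by 0.49 ± 0.07 (adjusted p = 0.00189). Nqo1, described with the NRF2 targets, was the third.

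Nupr1 had the lowest change of all called genes. This small stress-induced chromatin protein had 608 and 593 with vehicle, 2365 and 2186 with FGF2, 2006 and 1762 with U0126, and 849.8 and 717 with SB202190. The arrays with SB202190 lay close above those of vehicle, a change of -1.51 ± 0.09 against FGF2 alone and of -1.29 ± 0.09 against U0126 (adjusted p = 3.23e-06 and 5.51e-07). Nupr1 belongs to the list of genes induced by the factor ATF4 in amino acid stress, of which 2 of 30 rose and 3 fell, with a median of -0.10. The other members that fell were Pck2, the mitochondrial PEP carboxykinase, by 0.63 ± 0.11, and Slc3a2, the heavy chain of amino acid exchangers, by 0.28 ± 0.07. Those that rose were Slc7a11, the cystine exchanger, at 0.66 ± 0.13, and Ddit3, the factor CHOP, at 0.46 ± 0.11, which turned to -0.59 with its probe sets averaged. Asns, asparagine synthetase, stood at -0.30 ± 0.09 (adjusted p = 0.0828). In the direct test against U0126, 20 of the 30 genes were lower with SB202190 and 0 higher, beside 12.4% and 10.3% of all genes. U0126 itself had raised 19 of the 30 over FGF2 alone and lowered 0, beside 11.6% and 10.5%. Apart from Nupr1, these calls against FGF2 alone were lost without either FGF2 array or FGF2+SB202190 replicate 2, and Ddit3 also without replicate 1.

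Endoplasmic reticulum chaperones, which fold secreted proteins, were lower in 5 of 19 cases and higher in 0 (background 1.7% and 1.32%). Their median was -0.18. Dnajb9 and Dnajc3, cochaperones of BiP, fell by 0.34 ± 0.05 and 0.46 ± 0.08, and Dnajc3 was not called with its probe sets averaged. Dnajb9 went from 1813 and 1799 to 1411 and 1429.7, where U0126 gave 1385 and 1411. Hspa5, BiP itself, stood at -0.18 ± 0.06 (adjusted p = 0.123). With 1 array left out 0 to 4 of the 19 were called, and Dnajb9 was lost without either FGF2 array and Dnajc3 also without FGF2+SB202190 replicate 2. Collagen maturation enzymes, a list added after values had been seen, held 6 lower of 22 and 0 higher, among them the lysyl hydroxylase Plod2 at -0.53 ± 0.08, the collagen chaperone Serpinh1 at -0.31 ± 0.06 and the crosslinking oxidase Lox at -0.46 ± 0.09. P3h2, a prolyl hydroxylase, fell from 188 and 174 to 96.0 and 117 (-0.76 ± 0.13), while U0126 gave 263 and 234. Lox and Serpinh1 lost their calls without either FGF2 array or FGF2+SB202190 replicate 2, Plod2 without FGF2 replicate 1 or FGF2+SB202190 replicate 2, and P3h2 without either FGF2 array or FGF2+SB202190 replicate 1.

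Target genes of BMP and TGF-beta, which act through SMAD factors, fell in 8 of 23 cases and rose in 0 (background 1.7% lower). Their median was -0.29, and with 1 array left out 4 to 9 were called. Tgfbi, a matrix protein named for its induction by TGF-beta, had 485 and 476 with FGF2, 203 and 235 with SB202190 and 83.7 and 90.5 with U0126. Its fall of 1.13 ± 0.11 was stable, though without probe sets that can bind several transcripts it came from another probe set, at -0.78 (adjusted p = 0.0584). Id3, an inhibitor of bHLH factors downstream of BMP, fell from 1689.7 and 1663 to 1142 and 1112, close to the 1143 and 1079 of U0126 (-0.57 ± 0.06, adjusted p = 0.000326). Its relatives Id1 and Id4 fell by 0.43 ± 0.06 and 0.39 ± 0.06, and Pmepa1, a TGF-beta feedback inhibitor, by 0.80 ± 0.12. Not every target moved: Smad7, the inhibitory SMAD, stood at -0.34 ± 0.20 (adjusted p = 0.439), and Ccn2, a matricellular protein, at -0.01 ± 0.06. Id1 and Pmepa1 lost their calls without FGF2 replicate 2, and Id4 without FGF2 replicate 1. The fibroblast and pericyte marker sum given above was also lower with SB202190, with 0 of its 11 tested markers called, and its part in these changes was not tested.

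**Figure D4:**
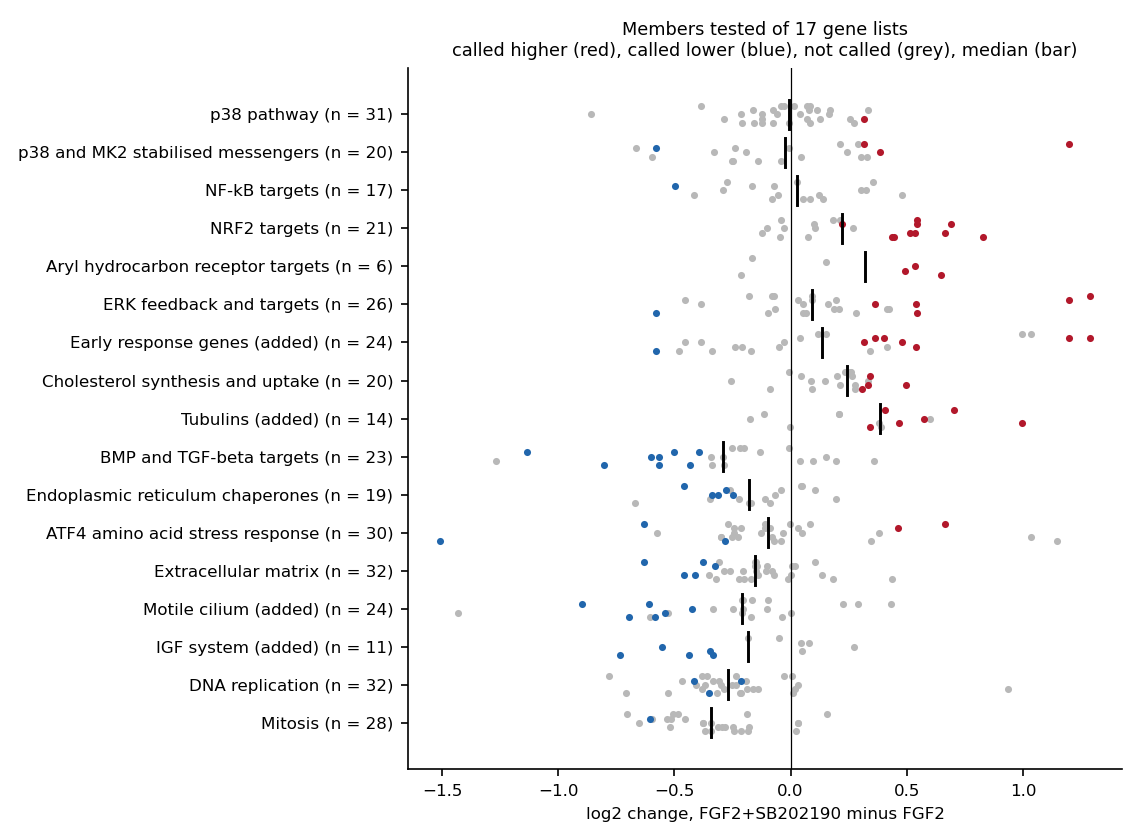
Log2 change of FGF2 with SB202190 against FGF2 alone (horizontal axis) for the tested members of 17 gene lists (vertical axis), with genes called higher in red, called lower in blue and uncalled in grey, and the list median as a black bar. The medians run from -0.34 (mitosis) to 0.38 (tubulins), and that of the p38 pathway is -0.005.

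Matrix regulators moved in both directions. Timp3, an inhibitor of matrix metalloproteinases, had 3143 and 3356 with vehicle, 2091 and 2288 with FGF2, 1953 and 1866 with U0126 and 1298 and 1446 with SB202190. The arrays with SB202190 were the lowest, at -0.65 ± 0.07 against FGF2 alone (adjusted p = 0.000256) and -0.48 ± 0.07 against U0126. Its relative Timp4 fell by 0.51 ± 0.09 and the membrane protease Mmp14 by 0.35 ± 0.08. Plat, the tissue plasminogen activator, rose instead, from 3083 and 3259 with FGF2 to 4142 and 4547, where U0126 gave 1658 on each array. Those are changes of 0.46 ± 0.06 against FGF2 alone (adjusted p = 0.00193) and 1.35 ± 0.06 against U0126. Mmp3, stromelysin, rose by 0.38 ± 0.07, with 1234 and 1338 against 936 and 1025, and 527 and 559 with U0126. In the list of matrix proteases and inhibitors that made 2 higher and 3 lower of 17 (background 1.32% and 1.7%). Mmp3 lost its call without either FGF2 array or FGF2+SB202190 replicate 2, Timp4 without either FGF2 array or FGF2+SB202190 replicate 1, and Mmp14 without any 1 of the vehicle, FGF2 or FGF2+SB202190 arrays.

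Secreted factors and carriers that fell included Shh, Igf1, Igfbp3 and Igfbp5. Shh, the hedgehog ligand, had 640.2 and 671 with vehicle, 1777 and 1769 with FGF2, 1216 and 1176 with SB202190 and 693 and 621 with U0126. SB202190 took away part of the rise (-0.56 ± 0.07, adjusted p = 0.00152), and its arrays stayed above those of U0126 by 0.87 ± 0.07. Its receptor Ptch1 fell by 0.29 ± 0.06. These were the 2 genes called of 14 in a Hedgehog list added after values had been seen, with 7 changes above 0, 7 below and a median of -0.01, and the signal transducer Smo stood at 0.13 ± 0.08. Igfbp5, a binding protein of insulin-like growth factors, fell from 3178 and 3854 to 2229 and 2444, whereas U0126 gave 4702 and 4183 and vehicle 6853 and 6267. Both arrays with SB202190 were the lowest of the 8 (-0.56 ± 0.07). The ligand Igf1 fell by 0.73 ± 0.14 and the carrier Igfbp3, which FGF2 had raised by 2.16 ± 0.06, by 0.34 ± 0.06. In the IGF list, added after values had been seen, 5 of 11 fell (background 1.7%) and 0 rose. Of the 6 uncalled, 4 had changes above 0, such as the receptor Igf1r at 0.27 ± 0.11. Among the 26 growth factors and cytokines of another list Igf1 was the only one called, and Lif, which FGF2 had raised by 2.41 ± 0.22, stood at -0.25 ± 0.22. Igf1 lost its call without either FGF2 array or FGF2+SB202190 replicate 2, Igfbp3 without either FGF2 array or FGF2+SB202190 replicate 1, and Ptch1 with any of those 4 arrays left out.

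Several motile cilium genes fell with SB202190, in a list of which FGF2 had lowered 19 of 24 (19% of all genes) and U0126 raised 14 (11.6%). Foxj1, the master factor of motile cilia, had 789 and 802 with vehicle, 380.3 and 337 with FGF2, 463 and 513 with U0126 and 217 and 224 with SB202190. It changed by -0.70 ± 0.09 against FGF2 alone (adjusted p = 0.00149) and by -1.13 ± 0.09 against U0126 (adjusted p = 1.64e-06). Cfap126, a basal body protein, fell by 0.42 ± 0.07, and Nme5 and Enkur, of the ciliary axoneme, by 0.54 ± 0.08 and 0.58 ± 0.09. Of the 24 genes, a list added after values had been seen, 6 fell (background 1.7%) and 0 rose, with a median of -0.21. The direct test against U0126 called 16 of them lower and 0 higher, beside 12.4% and 10.3% of all genes. Foxj1 and Cfap126 are also ependymal markers, of which 2 of 10 were called and whose summed signal overlapped, at 3924 and 4626 with SB202190 and 3956 and 4876 with FGF2 alone. Cfap126 and Nme5 lost their calls without FGF2 replicate 1, and Enkur without either FGF2 array or FGF2+SB202190 replicate 2.

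Tubulins, the subunits of microtubules, were higher in 6 of 14 cases (background 1.32%) and lower in 0. Their median was 0.38, in a list added after values had been seen. Tubb4b had 2094 and 2197 with FGF2 and 3208 and 3220.4 with SB202190, where vehicle and U0126 gave 1948 to 2475. It rose by 0.58 ± 0.06 (adjusted p = 0.000232), and Tuba4a by 0.47 ± 0.07. With all probe sets of each gene averaged they stood at 0.26 and 0.013 (adjusted p = 0.831 and 0.982). The brightest, Tuba1a, stood at 0.34 ± 0.05 and was called, but at 0.16 (adjusted p = 0.202) without quantile normalization. The beta forms Tubb2b and Tubb4a rose by 0.70 ± 0.12 and 1.00 ± 0.17. Tubb2b lost its call without replicate 2 of either group, and Tubb4a without replicate 1 of either group. Tubulin genes are near copies of one another, and their probe sets may share transcripts.

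Some sterol and fatty acid enzymes rose in small steps. In cholesterol synthesis and uptake 4 of 20 rose (background 1.32%) and 0 fell, with a median of 0.24. In fatty acid synthesis 3 of 17 rose and 0 fell, with a median of 0.13. Insig1, the sterol sensor partner, went from 509 on each FGF2 array to 678 and 774 (0.50 ± 0.08, adjusted p = 0.0078). Hmgcs1, of early sterol synthesis, went from 2612 and 2602 to 3134 and 3312 (0.31 ± 0.06), near the 3444 and 3333 of vehicle, and Msmo1 rose by 0.34 ± 0.07. The desaturases Fads1 and Scd2 rose by 0.33 ± 0.06 and 0.26 ± 0.05. With all probe sets of a gene averaged, Msmo1, Fads1 and Scd2 were not called. Insig1, Hmgcs1, Msmo1 and Scd2 lost their calls without either FGF2 array or FGF2+SB202190 replicate 2, Fads1 with any of those 4 arrays left out, and 0 to 4 of the 20 were called with 1 array left out.

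The cell cycle genes called were all lower. Of 32 DNA replication genes 3 fell and 0 rose (background 1.7% lower), with 27 changes below 0 and a median of -0.27. Of 28 mitotic genes 1 fell and 0 rose, with 24 below 0 and a median of -0.34. The helicase subunit Mcm7 went from 1168 and 1229 to 962 and 922, where U0126 gave 645 and 641 and vehicle 529 and 494 (-0.35 ± 0.07, adjusted p = 0.0159). Mcm5 fell by 0.42 ± 0.10, the sliding clamp Pcna by 0.21 ± 0.05 and Cdc20, the activator of the anaphase-promoting complex, by 0.61 ± 0.15. With all probe sets of a gene averaged, Mcm5, Mcm7 and Cdc20 were not called. Each of these 4 lost its call without either FGF2 array or FGF2+SB202190 replicate 2, Mcm5 and Mcm7 also without FGF2+SB202190 replicate 1, and Cdc20 also without any vehicle or FGF2+U0126 array. At an unadjusted p under 0.05, which 2239 of all 13174 genes reached, 0 replication genes were higher and 16 lower, and 0 mitotic genes were higher and 6 lower. Of 22 G1 cyclins, kinases and inhibitors 0 were called by limma, with 1 higher and 4 lower at that unadjusted p. The list of ribosome biogenesis had 0 called of 28, with 0 and 3 in the same count, and that of interferon-stimulated genes 0 of 25, with 1 and 8.

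The astrocyte genes called were all lower, while the list medians lay near 0. Of 28 mature astrocyte genes 4 fell and 0 rose (background 1.7% lower and 1.32% higher), with a median of -0.08. Aqp4 had 5502 and 5179 with vehicle, 1592 and 1523 with FGF2, 2389 and 2351 with U0126 and 1255 and 1305 with SB202190. It fell by 0.28 ± 0.06 (adjusted p = 0.0175), and Gfap by 0.24 ± 0.06 (adjusted p = 0.0351), against steps of -1.92 ± 0.06 and -0.65 ± 0.06 from vehicle to FGF2. Of 24 reactive astrocyte genes 3 fell and 0 rose, with a median of 0.01. Olig1, a factor of oligodendrocyte precursors, fell by 0.30 ± 0.06 and was the 1 called of 7 markers of that type. Aqp4 lost its call with any of the 4 arrays of the comparison left out, Gfap without either vehicle array, either FGF2 array or FGF2+SB202190 replicate 2, and Olig1 without either FGF2 array or FGF2+SB202190 replicate 2.

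Further stable genes lay outside these lists. Slc6a6, the taurine transporter, fell from 613 and 583 to 265 and 314, below the 369 and 339 of vehicle (-1.04 ± 0.10, adjusted p = 0.000216). Hspb6, a small heat shock protein, had 850.3 and 882 with FGF2, 496 and 468 with SB202190 and 1293 and 1368 with U0126. It fell by 0.84 ± 0.07 against FGF2 alone and differed from U0126 by -1.47 ± 0.07 (adjusted p = 2.05e-08). C530044C16Rik, known by a clone name, did the same from a dimmer level, with 117 and 112, 53.2 and 52.6, and 489.8 and 407. Crabp2, a retinoic acid carrier, fell by 0.92 ± 0.13, Lbp, which binds bacterial lipopolysaccharide, by 0.84 ± 0.12, and Thbd, thrombomodulin, by 0.65 ± 0.09. Higher were Ccn3, a matricellular protein, at 0.77 ± 0.11, H1f2, a linker histone, at 0.46 ± 0.05, and Rufy3, an adaptor of axonal growth, at 0.73 ± 0.10. Nwd1 had the highest stable change, 2.10 ± 0.28, but from 11.9 and 9.42 on the FGF2 arrays. Its arrays with SB202190 read 59.7 and 44.2, and with a pseudocount of 16 the change was 1.35. Xdh, xanthine dehydrogenase, was called at 26.6 and 22.8 against 1.02 and 7.83, but these FGF2 signals lie near the pseudocount, which sets the size of its change (2.39, or 1.04 with a pseudocount of 16), and it lost its call with any array but FGF2 replicate 2 left out.

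**Figure D5:**
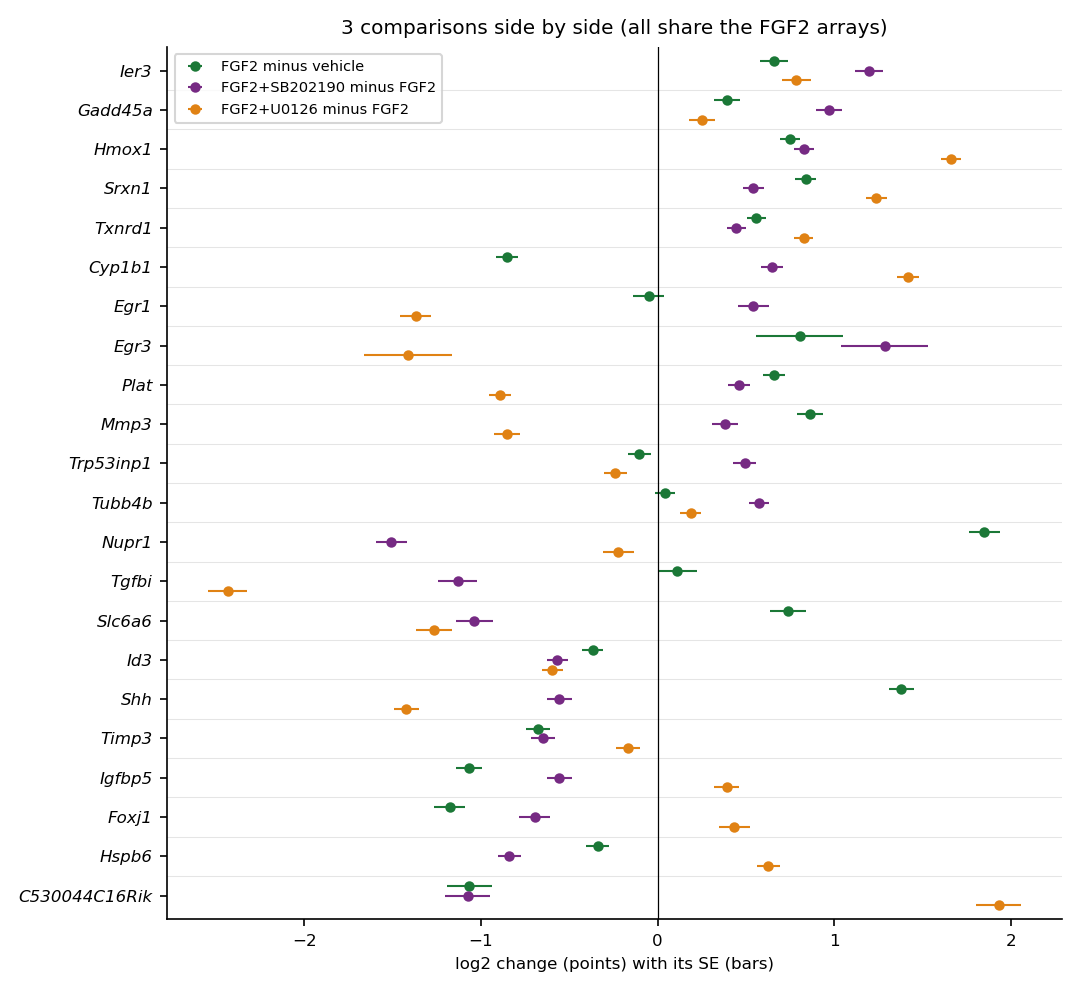
Log2 change (points) and SE (bars) of 22 genes in 3 comparisons, FGF2 against vehicle, FGF2 with SB202190 against FGF2, and FGF2 with U0126 against FGF2, which all use the FGF2 arrays. Egr1 lies at 0.54 with SB202190 and -1.37 with U0126, Foxj1 at -0.70 and 0.43, and Id3 at -0.57 and -0.60.

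Set against U0126 directly, SB202190 differed in 2986 genes (22.7%), 1354 higher and 1632 lower. FGF2 against vehicle changed 4991 genes (37.9%), 2489 higher and 2502 lower, or 4018 and 1479 with median centring, which moved the median of all genes there to 0.158. The comparison of U0126 with FGF2 alone called 2916 (22.1%), and that of FGF2 with SB202190 against vehicle 4722 (35.8%), 2377 higher and 2345 lower. These comparisons share arrays with that of SB202190 against FGF2 alone, so their values are set side by side for single genes and no share in common is given. Genes with opposite positions that the direct test called included Egr1, Egr3, Plat and Mmp3, which lay above FGF2 alone with SB202190 and below it with U0126, and Foxj1, Hspb6, C530044C16Rik and Dbp, which lay the other way. Dbp, a clock output factor, had 1261 and 1209 with FGF2, 1010.4 and 833 with SB202190 and 2133 and 2108 with U0126. Its call against FGF2 alone was lost without either FGF2 array or FGF2+SB202190 replicate 2, and its difference between the inhibitors was -1.22 ± 0.08 (adjusted p = 3.01e-07). The labels give no dose for either inhibitor, and the 2 are compared at whatever doses were used.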

How the data were processed

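The deposited intensity values, 1 linear signal per probe set and array, had been scaled by the authors to a common trimmed mean of 150.001, as the values show. For the algorithm, its version and any filter, the answer is not given in the sources used here. Probe sets were named from GEO's platform annotation, with 932 of several symbols and 9211 of none left out of the gene tests. Values were taken as log2(value + 1.77), the 10th percentile as pseudocount, and quantile-normalized. Each gene was represented by its probe set of highest mean, and genes with a mean log2 under 3.83, the 40th percentile, were dropped. limma 3.58.1 in R 4.3.3 was fitted to all 8 arrays and 4 groups with an intensity trend in the variance prior (4 residual and 8.99 prior degrees of freedom), with Benjamini-Hochberg adjustment over all genes tested and a threshold of 0.05. The script was tested on simulated data. Figures were drawn with matplotlib 3.10.9 in Python 3.11.15. With 2 arrays a group, their number limits the precision.

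Members, tests and lists were chosen with earlier results of these data known. The naming rule took, among called genes with groups apart, the 15 of highest and the 15 of lowest change, up to 5 of smallest p per list, every p38 pathway gene, and the 10 of largest change called against both FGF2 alone and U0126. That rule gave 231 genes, and the text describes some of them. Genes outside it, such as stable genes and uncalled list members, were chosen after their values were seen. Alternatives covered normalization, pseudocount, filter, variance prior, probe set choice, threshold, a replicate block and leaving out each array.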

Additional observations from a re-analysis of the deposited data

Results flagged for a closer look

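Probe sets with no single gene symbol were outside the tests of named genes. Of 3137 such probe sets above the filter, limma called 51 (1.63%) in FGF2 with SB202190 against FGF2 alone, 38 higher and 13 lower. These calls and their adjusted p come from a separate fit to every probe set above the filter. That fit called 516 of 27061, 263 higher and 253 lower, so these probe sets do not stand out by their number of calls. The called probe set of lowest change had 706.8 and 914.3 with FGF2, 284.1 and 328.6 with SB202190 and 198.1 and 209.5 with U0126, a change of -1.38 (adjusted p = 0.000636). The one of highest change had 38.5 and 50.9 with FGF2 and 96.9 and 109.9 with SB202190, a change of 1.17 (adjusted p = 0.02).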

How the results depend on the processing

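The 398 calls became 235 with median centring of all probe sets, 170 with the mean of all probe sets of a gene, 115 at an adjusted p under 0.01, 796 under 0.10 and 0 without an intensity trend in limma's prior, where 1819 genes had an unadjusted p under 0.05 and the smallest adjusted p was 0.0765. With 1 array left out they were 82 to 396. The 2986 calls against U0126 became 1735 without an intensity trend, 4508 with every probe set, 1783 with the mean of all probe sets, 1689 at an adjusted p under 0.01 and 1805 to 3012 with 1 array left out, the lowest without FGF2+SB202190 replicate 2. The 4991 calls of FGF2 against vehicle became 8243 with every probe set and 3837 to 5012 with 1 array left out. Among the genes named or in added lists, 5 reversed with the mean of all probe sets, Ypel2 to -0.0021, Ddit3 to -0.59, Acss2 to -0.012, Ostc to 0.15 and Unc13b to 0.30. With the replicate number as a block the comparison with FGF2 alone gave 414 calls, 375 of them among the 398. The numbers showed no pairing. Deviations of same-numbered arrays from their group means correlated over genes at -0.026 to 0.034 between groups. Of 130 genes called among those named or in added lists, 101 lost the call when some array was left out. The cause of these shifts was not tested. Dim genes were measured least precisely, with a median SE of 0.41 over the 3294 dimmest and 0.07 over the 3294 brightest.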
